A study of Xenopus laevis with 9 samples.

Results

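Of the 15491 Xenopus laevis probe sets measured, 95 stood lower than the control in cranial neural crest that received a morpholino against ADAM13, and also in crest that received that morpholino together with the ADAM13 cytoplasmic domain. A probe set was a member when its mean over the 3 control arrays was at least 5 on the log2 scale and when both differences from the control, taken within each of 3 experiments, were -0.5 or lower, which makes 6 differences in all. The control level was met by 7763 probe sets, and the 2 probe sets of adam33, the gene symbol that the array annotation gives to ADAM13, were left out. The members were thus chosen by these 6 differences and by the control level, so the members' distance from the control is given below as a description without a test. What the rule did not use directly is the difference between the knockdown with and without the domain. The rule was also applied to 2 experiments at a time, and the same differences were then read in the third.

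The arrays are 9 Affymetrix arrays of total RNA, 3 per group, from cranial neural crest explants cut from embryos of stages 15 to 17. In the MO13 group each embryo received 10 ng of the ADAM13 morpholino at the 1-cell stage. The MO13+C13 group received the same morpholino and an mRNA coding for a fusion of GFP with the ADAM13 cytoplasmic domain. The dose of this mRNA is 300 pg in the labels of the samples but 0.5 ng in the text of the series. The CMO group received 10 ng of a control morpholino. All embryos were grown at 15 °C, and replicates 1, 2 and 3 of the groups came from the same 3 independent experiments. MO13 and MO13+C13 both carry the ADAM13 morpholino and both are set against the same CMO arrays, so their differences from CMO share arrays. Loss of ADAM13 and any other effect of that morpholino cannot be told apart in this design, and the explants are bulk tissue, in which fewer cells of a type and less RNA per cell cannot be told apart.

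The cranial neural crest is the embryonic cell population that leaves the edge of the neural plate and migrates into the face and pharyngeal arches, where it forms cartilage, nerves and pigment cells. ADAM13 is a membrane-bound metalloprotease of these cells that cleaves adhesion molecules at the cell surface. Its cytoplasmic domain can be released from the membrane, enter the nucleus and act on gene expression, and the MO13+C13 group asks which messenger RNAs that stand lower in the knockdown are back at the control level when this domain alone is supplied.

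The 9 arrays had medians between 4.88 and 5.07 and lower quartiles between 1.78 and 1.89 on the log2 scale. The adam33.L probe set averaged 4.34 ± 0.52 in MO13, 10.07 ± 0.14 in MO13+C13 and 3.64 ± 0.76 in CMO (SD, n = 3 each), while adam33.S averaged 1.43, 1.55 and 1.56 in the same order. A morpholino need not lower the messenger RNA it binds, so these values check the injection of the domain mRNA and not the knockdown. The array reads 15 of the 20 listed neural crest marker genes. With the gene copies marked .L and .S counted apart, as in all lists below, these make 20 genes. Of these 20, 15 had a CMO mean of 5 or more, among them tfap2a.L at 10.70, itga5.L at 10.59 and sox9.S at 10.23. In the same list sox10.L stood at 6.91 and alx1.L at 1.83. The mean level over these 20 genes ran from 6.87 to 7.10 in MO13, 6.90 to 7.01 in MO13+C13 and 7.17 to 7.26 in CMO. The mean over 23 epidermis and ciliated cell markers ran from 6.14 to 6.61 in MO13, 6.66 to 7.06 in MO13+C13 and 6.03 to 6.76 in CMO. Means over 27 neural plate markers ran from 5.79 to 6.03, 5.90 to 5.98 and 5.70 to 5.89 in the same order. Means over 25 mesoderm and muscle markers lay at 2.37 to 2.61, 2.38 to 2.51 and 2.44 to 2.46, and those over 20 blood, endoderm and notochord markers at 2.48 to 2.67, 2.42 to 2.73 and 2.52 to 2.70. Some genes of these last 2 lists were near the bottom of the scale in CMO, with myod1.L at 1.03, gata1.L at 1.05 and sox17a.L at 1.12. Others were not, with pax3.S, ckm.L and hba-l5.L at 10.74, 8.56 and 8.77. Between these stood nog.L at 5.82, not.L at 5.30, cer1.S at 4.91 and gata2.L at 4.79. A CMO mean of 5 or more was held by 3 genes of each list. In the mesoderm and muscle list these were ckm.L and both copies of pax3, and a listed gene need not be specific to its tissue. None of the 115 marker genes is a member. Many of them did not meet the control level, and only 95 of the 7763 probe sets that met it are members. This count of 0 thus shows nothing about how members relate to cell types. The part that shifts in these markers play in the members' values was not tested.

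The 95 members belong to 90 design clusters, the sequence groups from which the array maker built its probe sets. A single gene symbol was given to 41 of them, or 43.2%, against 67.2% of the 7763 probe sets that met the control level. Of the 41, 3 carry a placeholder symbol and 38 carry an informative one, and these 38 probe sets stand for 37 genes because pacs2.L is read by 2 of them. A further 3 members have several symbols and 51 have none. X. laevis has an allotetraploid genome whose gene copies are marked .L and .S, and the named probe sets are 22 of .L and 16 of .S genes. The orientation letter in the probe set name was A for 67 members, or 70.5%, against 52.3% of the probe sets that met the control level.

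Over the 95 members the difference from CMO had a median of -1.11 in MO13, with a range of -2.11 to -0.59, and a median of -1.10 in MO13+C13, with a range of -2.61 to -0.58. Each median corresponds to a level 2.15-fold lower than in CMO. Within experiments 1, 2 and 3 the median difference was -0.98, -1.14 and -1.06 in MO13 and -1.03, -1.05 and -1.17 in MO13+C13. The CMO level of a member ran from 5.01 to 10.96 with a median of 6.84, which is below the median of 8.10 for all probe sets that met the control level. A CMO mean under 6 was held by 29 members and one of 8 or more by 28. The 3 MO13 arrays all lay below the 3 CMO arrays for 70 members, where 5.06% of all probe sets do so. The 3 MO13+C13 arrays all lay below CMO for 77 members, where 6.42% of all probe sets do so, and 68 members, against 2.80% of all probe sets, met both conditions. These counts follow from the rule.

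**Figure D1:**
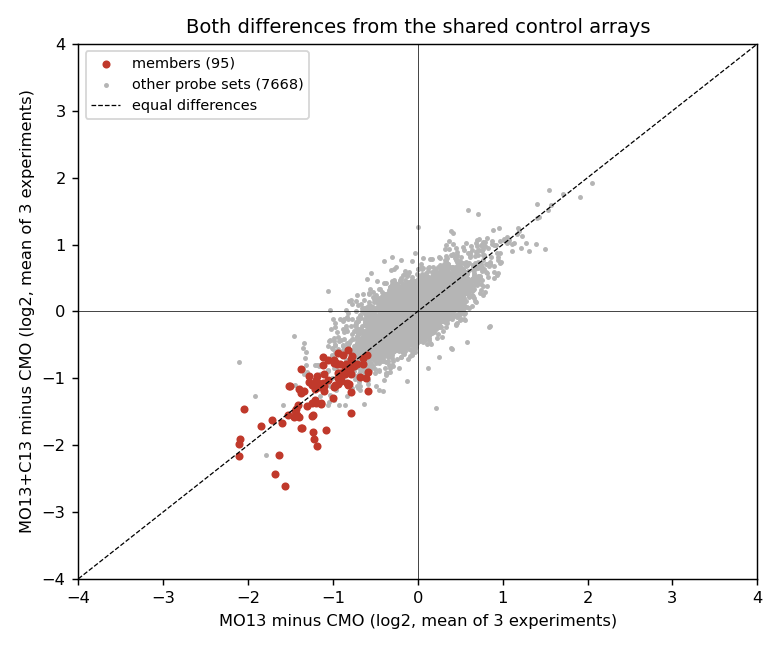
Difference from CMO in MO13 (x axis) and in MO13+C13 (y axis), each the mean of 3 experiments on the log2 scale, for the 95 members and the other probe sets with a control mean of 5 or more. The members lie between -2.11 and -0.59 on the x axis and between -2.61 and -0.58 on the y axis, spread along the line of equal differences.

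The rule cuts a continuous distribution. Within 0.1 of the threshold, 28 members lay just inside and 50 probe sets lay just outside. The nearest inside, with a largest difference of -0.50, included a probe set titled ring finger protein in the authors' deposited table, surf2.L and ambp.L, whose means over the 6 differences were -1.17, -0.90 and -0.89, and 2 unannotated probe sets. The nearest outside, with a largest difference of -0.49, included klhdc10.L with a mean of -0.75 and 4 unannotated probe sets.

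The named members are described here by the known role of each gene, a grouping made after the members were known that shows nothing about how common a role is. Genes of the nucleus and of RNA handling come first, with 11 members. The 4 with the lowest means are hipk3.L, sp2.L, nupr1.L and med21.L. hipk3 encodes a nuclear kinase of the homeodomain-interacting family. Its probe set read 4.22, 4.22 and 3.39 in MO13 and 4.20, 4.64 and 3.39 in MO13+C13, against 5.60, 5.97 and 6.59 in CMO, for experiments 1, 2 and 3 in this and every list below. The mean difference from CMO was -2.11 ± 0.96 in MO13 and -1.98 ± 1.06 in MO13+C13 (SD over 3 experiments). No array of either knockdown group reached the lowest CMO array, and experiment 3 had the widest gap. sp2 encodes a zinc finger transcription factor of the Sp family. Its probe set read 5.39, 4.79 and 5.64 in MO13 and 4.38, 4.55 and 5.37 in MO13+C13, against 6.82, 7.03 and 6.89 in CMO. The differences from CMO were -1.64 ± 0.53 in MO13 and -2.15 ± 0.54 in MO13+C13, and in each experiment the MO13+C13 array was the lowest of the 3.

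nupr1 encodes a small stress-induced chromatin protein. Its probe set read 4.93, 4.85 and 7.42 in MO13 and 6.03, 5.13 and 7.80 in MO13+C13, against 7.39, 6.53 and 9.44 in CMO. Experiment 3 was high in every group, so the groups overlap although each experiment showed the drop, with means of -2.05 ± 0.39 in MO13 and -1.47 ± 0.15 in MO13+C13. med21 encodes a subunit of Mediator, the complex that links transcription factors to RNA polymerase II. Its probe set read 8.01, 8.52 and 8.74 in MO13 and 8.58, 8.72 and 8.44 in MO13+C13, against 9.44, 9.82 and 10.14 in CMO. The difference in MO13 was -1.38 ± 0.07, with the 3 experiments close together, and that in MO13+C13 was -1.22 ± 0.43. gigyf2 encodes a protein of translational repression. Its probe set read 5.39, 4.82 and 6.97 in MO13 and 6.0, 5.64 and 6.26 in MO13+C13, against 6.82, 6.76 and 7.81 in CMO. The MO13 array of experiment 3 lay above 2 CMO arrays, while the MO13+C13 arrays all lay below CMO, and the differences were -1.40 ± 0.55 and -1.16 ± 0.37.

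The other 6 of this group had smaller differences. snapc5.L, a subunit of the complex that starts small nuclear RNA transcription, differed from CMO by -0.98 in MO13 and -1.12 in MO13+C13. hoxa3.S, a Hox factor of the hindbrain and pharyngeal arches, read 6.58, 5.69 and 6.69 in MO13 and 6.65, 6.40 and 6.32 in MO13+C13, against 7.16, 7.22 and 7.33 in CMO, so that all knockdown arrays lay under a narrow control range. hnrnpu.S, which encodes an RNA-binding nuclear matrix protein, differed by -0.79 and -0.93, and purb.S, which encodes a single-strand nucleic acid binding protein, by -0.86 and -0.83, in MO13 and MO13+C13. wdr18.L, a gene of ribosome assembly, differed by -0.75 and -0.81, and spats2.S, which encodes an RNA-binding protein, by -0.86 and -0.93.

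The next group holds genes of signalling. dap encodes a small protein known in mammals as a suppressor of autophagy, and its .S copy had the lowest mean over the 6 differences of all members, -2.14. It read 3.58, 3.38 and 3.68 in MO13 and 3.41, 3.78 and 3.30 in MO13+C13, against 5.20, 5.71 and 6.06 in CMO. The differences were -2.11 ± 0.43 and -2.16 ± 0.52, or 4.32-fold and 4.47-fold lower, and all 6 knockdown arrays fell in a band well under the controls. rusc1 encodes an adaptor with RUN and SH3 domains. Its .S copy read 3.64, 3.52 and 3.38 in MO13 and 3.76, 3.65 and 3.70 in MO13+C13, against 5.80, 5.34 and 5.68 in CMO, with differences of -2.09 ± 0.25 and -1.90 ± 0.19. Its replicates were close within each group and the groups were far apart.

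mios encodes a component of GATOR2, which relays amino acid supply to mTORC1. Its .S copy read 5.89, 4.68 and 5.37 in MO13 and 5.37, 5.30 and 5.18 in MO13+C13, against 6.59, 6.75 and 7.18 in CMO, with differences of -1.53 ± 0.73 and -1.56 ± 0.40. The groups did not overlap, but the gap to the controls was uneven between experiments in MO13. camk1 encodes a calcium/calmodulin-dependent kinase. Its .S copy read 5.17, 3.99 and 3.67 in MO13 and 4.93, 4.38 and 3.39 in MO13+C13, against 6.39, 5.38 and 5.39 in CMO, with differences of -1.44 ± 0.25 and -1.49 ± 0.50. Experiment 1 was the highest in all 3 groups. xmc, known in Xenopus as marginal coil, encodes a coiled-coil protein needed for gastrulation movements. Its .L copy read 3.87, 5.42 and 3.84 in MO13 and 3.92, 6.20 and 4.16 in MO13+C13, against 5.19, 7.50 and 4.95 in CMO. Experiment 2 was high throughout, the groups overlap, and the differences were -1.50 ± 0.51 and -1.12 ± 0.29. bmp7.2.L, which encodes a bone morphogenetic protein ligand, read 4.31, 5.29 and 3.13 in MO13 and 4.52, 5.32 and 2.97 in MO13+C13, against 5.53, 6.09 and 4.27 in CMO. Its groups overlap too, with differences of -1.05 ± 0.22 and -1.03 ± 0.27.

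**Figure D2:**
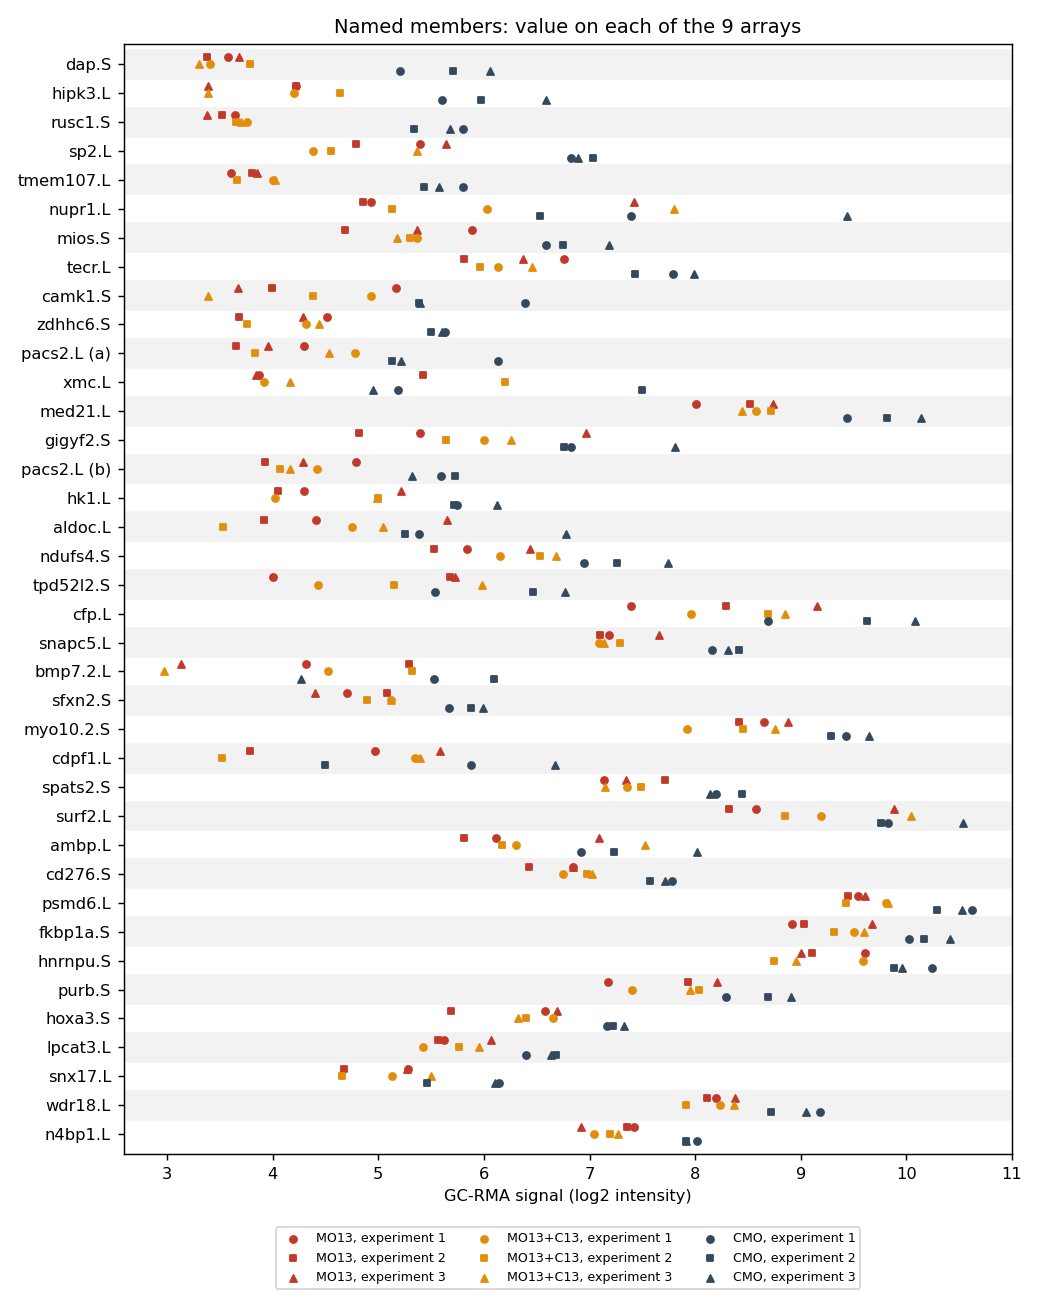
Log2 value in each of the 9 arrays for the 38 named member probe sets, 1 point per array, with colours for the groups and shapes for the experiments. For dap.S, rusc1.S and tmem107.L every MO13 and MO13+C13 array lies below every CMO array, while for nupr1.L and xmc.L the groups overlap and 1 experiment is high in every group.

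Another group holds genes of membranes, sorting and the cytoskeleton. tmem107 encodes a protein of the transition zone, the gate at the base of the cilium. Its .L copy read 3.60, 3.80 and 3.85 in MO13 and 4.00, 3.66 and 4.02 in MO13+C13, against 5.80, 5.43 and 5.57 in CMO, with differences of -1.85 ± 0.31 and -1.71 ± 0.14. No knockdown array came within 1 log2 unit of a control array. tecr encodes the reductase of the last step in making very long chain fatty acids. The authors' deposited table titles this probe set glycoprotein, synaptic 2. It read 6.76, 5.81 and 6.37 in MO13 and 6.13, 5.96 and 6.45 in MO13+C13, against 7.79, 7.43 and 7.99 in CMO, with differences of -1.42 ± 0.34 and -1.56 ± 0.10. zdhhc6 encodes a palmitoyltransferase, and its .S copy read 4.51, 3.68 and 4.29 in MO13 and 4.31, 3.76 and 4.44 in MO13+C13, against 5.63, 5.50 and 5.60 in CMO. The zdhhc6.S differences were -1.42 ± 0.36 and -1.41 ± 0.30. Both genes had knockdown arrays wholly below the controls, and the 3 zdhhc6.S control arrays were nearly equal.

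pacs2 encodes a sorting protein of the trans-Golgi network and of contacts between endoplasmic reticulum and mitochondria. Its first probe set read 4.30, 3.65 and 3.95 in MO13 and 4.78, 3.83 and 4.53 in MO13+C13, against 6.13, 5.13 and 5.21 in CMO. The second read 4.79, 3.93 and 4.29 in MO13 and 4.42, 4.07 and 4.16 in MO13+C13, against 5.59, 5.73 and 5.32 in CMO. The differences were -1.52 ± 0.29 and -1.11 ± 0.37 for the first, and -1.21 ± 0.52 and -1.33 ± 0.29 for the second, in MO13 and MO13+C13. Neither overlapped CMO, and both lie in a design cluster that holds 4 members, so these readings can share target sequence and are not separate genes. myo10.2.S, a gene of myosin X, which carries cargo to filopodia tips and is needed for cranial neural crest migration in Xenopus, read 8.65, 8.41 and 8.88 in MO13 and 7.92, 8.45 and 8.76 in MO13+C13, against 9.43, 9.29 and 9.65 in CMO. Its differences were -0.81 ± 0.06 and -1.08 ± 0.37, with no overlap. lpcat3.L, which encodes a lysophospholipid acyltransferase, differed by -0.82 and -0.86 in MO13 and MO13+C13, snx17.L, an endosomal sorting nexin, by -0.83 and -0.80, and tpd52l2.S, of a family of vesicle trafficking proteins, by -1.12 and -1.07.

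A further group holds genes of energy metabolism. hk1.L, hexokinase, which starts glycolysis, read 4.30, 4.05 and 5.21 in MO13 and 4.02, 5.00 and 4.99 in MO13+C13, against 5.74, 5.72 and 6.12 in CMO. aldoc.L, an aldolase further down the same pathway, read 4.41, 3.92 and 5.65 in MO13 and 4.75, 3.53 and 5.04 in MO13+C13, against 5.38, 5.25 and 6.78 in CMO. The hk1.L groups did not overlap, while the MO13 array of experiment 3 for aldoc.L lay above 2 CMO arrays. ndufs4.S, a subunit of respiratory complex I, read 5.84, 5.53 and 6.44 in MO13 and 6.15, 6.53 and 6.68 in MO13+C13, against 6.95, 7.26 and 7.74 in CMO. It was nearer the control with the domain in all 3 experiments, at differences of -1.38 ± 0.32 in MO13 and -0.86 ± 0.17 in MO13+C13. sfxn2.S, of a family of mitochondrial carriers, differed by -1.12 and -0.80 in MO13 and MO13+C13.

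The other named members are scattered over protein turnover and the cell surface. psmd6.L, a subunit of the proteasome lid, differed by -0.95 in MO13 and -0.79 in MO13+C13. fkbp1a.S, a peptidyl-prolyl isomerase by its symbol but FKBP10 by the authors' title, differed by -0.99 and -0.73, and n4bp1.L, which encodes a Nedd4-binding protein, by -0.72 and -0.78. cfp.L, properdin, a positive regulator of the alternative complement pathway, differed by -1.19 and -0.97, and cd276.S, an immune checkpoint molecule of the B7 family, by -0.98 and -0.77. ambp.L, a plasma protein gene by its symbol but weakly similar to complement C1q by the authors' title, differed by -1.05 and -0.73. surf2.L differed by -1.12 and -0.68 and cdpf1.L by -0.90 and -0.93. In all, 27 of the 38 named probe sets had no overlap of either knockdown group with CMO, where 2.80% of all probe sets have none, and the rule drives this count.

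Of the 51 members without a symbol, 9 carry a title in the authors' deposited table. The titles include SEPTIN 7, a phosphatidylinositol-4-phosphate 5-kinase and a weak similarity to ZW10 interactor. A weak similarity to a kruppel-like zinc finger protein is the title of 2 members of the same cluster, at -1.18 and -1.24 in MO13 and -2.01 and -1.80 in MO13+C13. The member furthest from CMO in MO13+C13, picked out after its values were seen, is titled Riddle 2. It read 10.36, 10.63 and 7.08 in MO13 and 9.19, 9.99 and 5.73 in MO13+C13, against 11.14, 11.91 and 9.70 in CMO, so its groups overlap and experiment 3 was low in every group. The mean differences were -1.56 in MO13 and -2.61 in MO13+C13. A member with several symbols, titled Riddle 3 and Riddle 4, differed by -1.69 in MO13 and -2.43 in MO13+C13, with no overlap with CMO.

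The difference between the knockdown with and without the domain was centred near 0. MO13+C13 minus MO13 had a median of -0.05 over the 95 members, with a range of -1.05 to 0.59, and its median was -0.05, 0.00 and -0.12 in experiments 1, 2 and 3, where the medians over all probe sets were 0.01, -0.02 and 0.00. The rule confines this difference, since it places both groups at least 0.5 below the same control arrays. The mean was lower in MO13+C13 for 55 members and higher for 40, and the mean difference was under 0.5 in size for 84. It was -0.5 or lower for 9 members and 0.5 or higher for 2. The median size was 0.15, against 0.14 over the probe sets that met the control level. MO13+C13 lay below MO13 in all 3 experiments for 21 members, or 22.1%, where 14.0% of all probe sets do so, and above it in all 3 for 9, or 9.47%, where 11.7% do so. The 3 MO13+C13 arrays all lay below the 3 MO13 arrays for 2 members, where 2.55% of all probe sets do so, and all above them for 1 member, where 1.96% do so.

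In limma's moderated test over all 15491 probe sets, 1 probe set passed an adjusted p of 0.05 between MO13+C13 and MO13, which is 0.00646% of those tested. It was adam33.L, and 0 of the 95 members passed. The lowest adjusted p of a member in limma was 1, and 0.721 with the experiment as a block. At an unadjusted p under 0.05 the limma fit had 2 members, both lower with the domain, where 1.36% of all probe sets are reached, and the fit with the block had 20, of all probe sets 6.71% being reached. Of these 20 members 14 were lower, where 2.83% of all probe sets are reached, and 6 were higher, where 3.89% are. The rule asks for a drop in every experiment, which can favour probe sets with a small spread within experiments. The shares over all probe sets also include those under the control level. The counts in the fit with the block are thus a description and do not show an effect of the domain on the members. A p above the threshold does not show that a member is equal in the 2 groups. The 95% interval of the difference reached a median of 0.62 to either side of its estimate, and 0.38 with the block.

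The interval for dap.S ran from -0.57 to 0.47 around a difference of -0.05. For tmem107.L it ran from -0.20 to 0.49 around 0.14, and for rusc1.S from -0.13 to 0.51 around 0.19. These members were chosen as low in both groups, so the intervals give the precision of the comparison only. The widest intervals belong to members with large shifts between experiments, such as nupr1.L, whose interval ran from -1.72 to 2.90 and, with the experiment as a block, from 0.18 to 1.00.

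**Figure D3:**
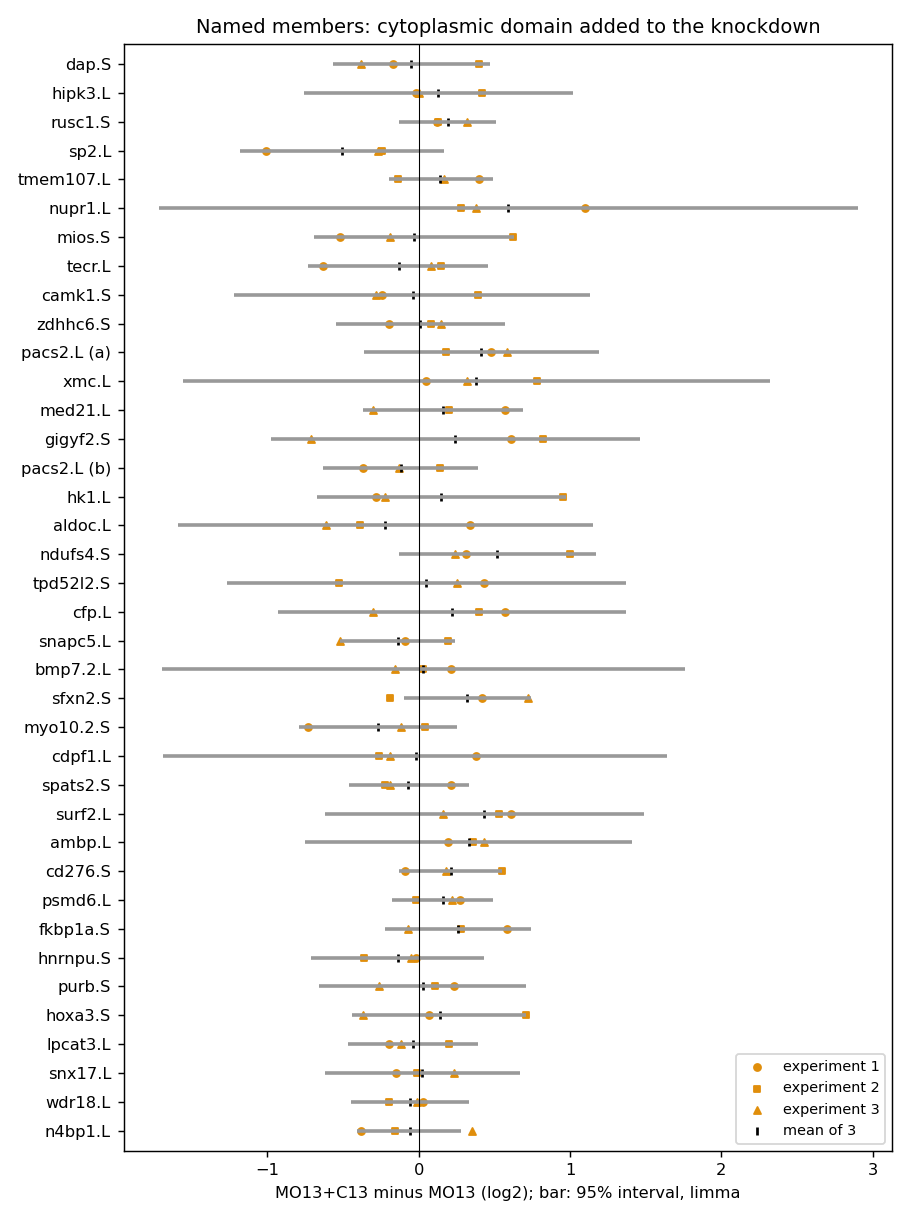
MO13+C13 minus MO13 on the log2 scale for the 38 named member probe sets, with the 3 within-experiment differences as points and the mean with its 95% limma interval. For dap.S the interval runs from -0.57 to 0.47, and that of ndufs4.S, at a mean of 0.52, runs from -0.13 to 1.17 without the block.

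Without the block, the smallest unadjusted p among members that were higher with the domain was that of ndufs4.S, whose MO13+C13 minus MO13 differences were 0.31, 1.00 and 0.24, with a mean of 0.52 and a limma interval of -0.13 to 1.17 (adjusted p = 1). With the experiment as a block its interval was 0.13 to 0.90 (limma adjusted p = 0.721), and the smallest unadjusted p among members that were higher was then that of nupr1.L, with a mean of 0.59 and the interval of 0.18 to 1.00 given above. The next, sfxn2.S, had a mean of 0.32 and an interval of -0.10 to 0.74. An unannotated probe set came next, with a mean of 0.24. The smallest unadjusted p among members that were lower, also without the block, belonged to 3 unannotated probe sets, of which the first had a mean of -0.61 and an interval of -1.02 to -0.20 and the second a mean of -0.70 and an interval of -1.32 to -0.08 (adjusted p = 1 in limma for both). With the experiment as a block, another unannotated member was lower with the domain, at -0.66, -0.80 and -0.72 in experiments 1, 2 and 3. Its mean was -0.73, and its interval ran from -1.04 to -0.41 with the block and from -1.70 to 0.24 without it. Its unadjusted limma p with the block was 0.000831 (adjusted p = 0.721), against 0.0114 for nupr1.L. By the cut of 0.5 in all 3 experiments, 163 probe sets that met the control level were lower in MO13 than in CMO with no condition on MO13+C13. Of these, 2 were also lower in MO13 than in MO13+C13, 95 are the members, and 66 met neither further condition. The members need agreement between contrasts that share the CMO arrays, so these counts are not shares of genes that returned or stayed low. The same cut with the sign turned, higher in both knockdown groups than in CMO, was held by 41 probe sets. By the cut without the turned sign, 4 were lower in MO13+C13 than in both other groups, and members are among these 4.

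When the rule was applied to 2 experiments and the chosen probe sets were read in the third, most stayed below the control. The 3 choices below hold 93, 93 and 94 of the 95 members, in the order given. The counts past the threshold are thus nearly all members and follow from the rule. The shares rest on how many chosen probe sets failed in the third experiment. Choosing in experiments 2 and 3 gave 201 probe sets, of which 95, or 47.3%, had both differences at -0.5 or lower in experiment 1, where 3.83% of the probe sets that met the control level did so. Choosing in experiments 1 and 3 gave 129, of which 94, or 72.9%, were past the threshold in experiment 2, against 5.7%. Choosing in experiments 1 and 2 gave 144, of which 94, or 65.3%, were past it in experiment 3, against 5.31%. The median differences read in experiments 1, 2 and 3 were -0.67, -0.89 and -0.82 in MO13 and -0.72, -0.89 and -0.88 in MO13+C13, where the medians over all such probe sets lay between -0.01 and 0.06. Both differences were below 0 for 85.6%, 92.2% and 95.1% of the chosen probe sets, against 29.5%, 31.3% and 34.5% of all. The 2 differences read in an experiment share 1 control array, so a high value on that array lowers both.

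**Figure D4:**
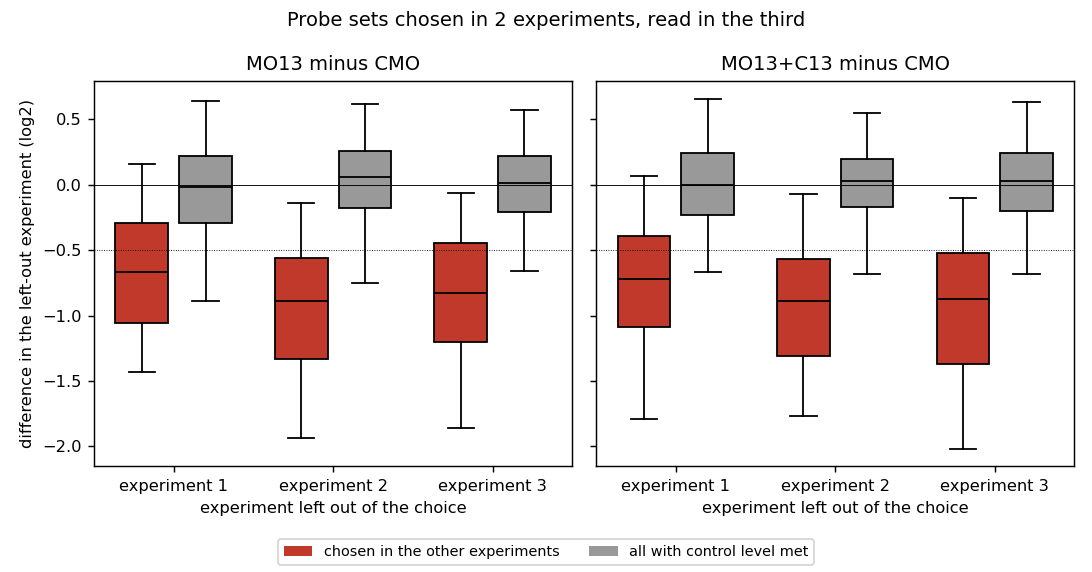
Difference from CMO in the experiment that took no part in the choice, for MO13 and for MO13+C13, as boxes (median and quartiles, with whiskers to the 5th and 95th percentiles) for the probe sets chosen in the other 2 experiments and for all probe sets that met the control level. The chosen probe sets have medians of -0.67 to -0.89 in MO13 and -0.72 to -0.89 in MO13+C13, while all probe sets are centred near 0.

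For 16 of the 37 genes the array holds 25 other probe sets, from the same or the other gene copy. They are the probe sets of these genes that did not meet the rule, and a second pacs2.L probe set that met it counts as a member, so their distance from CMO relative to the members follows from the choice and their values are a description. In MO13 against CMO, 17 of the 25 had a mean below 0, 8 were lower in all 3 experiments, where 18.7% of all probe sets are, and 3 were higher in all 3, where 17.7% are. Their median difference was -0.10, against -0.01 over all probe sets. In MO13+C13 against CMO, 16 were below 0, 11 were lower in all 3 experiments, where 19.8% are, 3 were higher in all 3, where 19.1% are, and the median was -0.16. For the 18 with a CMO mean of 5 or more, the median was -0.17 in MO13 and -0.13 in MO13+C13. Over all probe sets at that level it was 0.02 in both. In limma 0 of the 25 passed an adjusted p of 0.05 in either comparison, where 0.0968% and 0.142% of all probe sets pass for MO13 and MO13+C13. At an unadjusted p under 0.05, 4 were lower and 1 was higher in MO13, where 3.71% and 3.16% of all probe sets are reached, and 5 were lower and 0 higher in MO13+C13, where 3.67% and 3.47% are. With the experiment as a block in limma, 2 passed in MO13, where 1.16% of all do, and 0 in MO13+C13, where 1.76% do. At an unadjusted p under 0.05 in that fit 8 were lower and 1 was higher in MO13+C13, where 8.24% and 7.83% of all are reached.

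The 2 were a further xmc.L probe set and 1 of 3 further sfxn2.S probe sets. The xmc.L probe set differed by -1.41, -1.96 and -0.62 in MO13 (limma adjusted p = 0.741, and 0.0487 with the block) and by -0.80, -1.15 and -0.16 in MO13+C13. That sfxn2.S probe set differed by -0.64, -0.79 and -0.72 in MO13 (limma adjusted p = 0.131, and 0.0252 with the block) and by -0.37, -0.37 and -0.55 in MO13+C13. Both had the sign of their member probe sets. The other 2 sfxn2.S probe sets had MO13 differences of -0.18 and -0.07, at CMO means of 2.19 and 1.81, low on the scale, where a drop can hardly be read. The 2 further hipk3.L probe sets were lower in MO13+C13 in all 3 experiments, at means of -1.15 and -1.29, while 1 of them was higher than CMO in experiment 1 of MO13, at 0.61.

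The further readings of other genes differed in sign and size. The wdr18.S probe set differed by 0.41, 0.44 and 0.54 in MO13 and 0.14, 0.19 and 0.66 in MO13+C13, the opposite sign to wdr18.L. The 4 other hnrnpu probe sets had MO13 means between -0.28 and 0.22, and the 4 other ambp.L probe sets between -0.64 and 0.48, with the one at -0.64 below CMO in all 3 experiments of both groups. The zdhhc6.L probe set differed by a mean of -0.40 in MO13 and -0.53 in MO13+C13, below CMO in all 3 experiments of both groups. Beyond the named genes, 14 further probe sets share a cluster with a member. In MO13, 10 of these had a mean below CMO, and the median was -0.12. In MO13+C13, 10 did, and the median was -0.24. In the cluster of the member titled ring finger protein, 3 further probe sets differed by -1.35, -0.71 and -1.34 in MO13. The first of these had a limma adjusted p of 0.123, and 0.028 with the block. The septin7.L probe set, in the cluster of the member titled SEPTIN 7, had means of 0.33 in MO13 and 0.36 in MO13+C13. The snapc1.L probe set, in the cluster of an unannotated member, had means of 0.27 and 0.49, above CMO in all 3 experiments of both groups. A probe set that shares a cluster can share target sequence, and the copies .L and .S can cross-hybridise, so these are not independent genes.

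**Figure D5:**
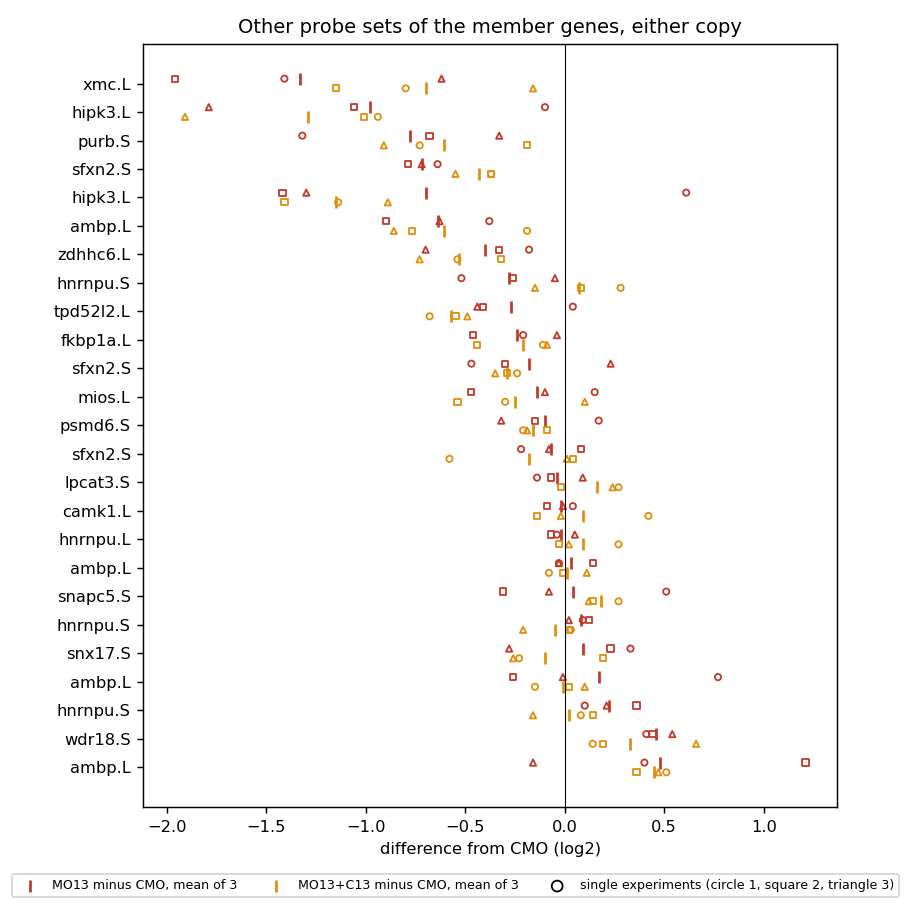
Mean difference from CMO on the log2 scale for the 25 other probe sets of the member genes, in MO13 and in MO13+C13, with the 3 within-experiment differences as open points. The means spread to both sides of 0, with wdr18.S at 0.46 in MO13 and 0.33 in MO13+C13.

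Genes related to the leading members were read from 8 lists of pathways and families, where only 6 of 22 listed transition zone genes had a probe set. Copies .L and .S count apart, and each gene was taken at its brightest probe set. Read so, 5 of 103 such genes are members, and hipk3.L is a member only by another probe set. They are tmem107.L among 6 ciliary transition zone genes, dap.S among 17 autophagy genes and sp2.L among 13 Sp and Klf factor genes. The others are ndufs4.S among 26 complex I genes and cd276.S among 10 surface genes, which include cd9, cd44, cd63, cd81, cd82 and vtcn1. These lists were drawn up around single genes known from earlier results of these data, so the count of 5 shows no excess of members. Over all probe sets, 95 of 15491 are members. Of the other genes on these 5 lists, 0 passed limma's adjusted p of 0.05 in MO13 against CMO. In MO13+C13 only atg5.L, which acts in forming the autophagosome, passed, at 1.05 higher than CMO (limma adjusted p = 0.0422). In the limma fit with the experiment as a block atg5.L was also higher in MO13, by 0.88 (adjusted p = 0.0419, and 0.112 without the block), and ndufa8.L of complex I was higher in MO13+C13, by 1.01 (adjusted p = 0.0462, and 0.301 without the block). The median difference from CMO over the other genes in MO13 was -0.01 for the transition zone, 0.14 for autophagy and 0.03 for Sp and Klf factors. It was -0.01 for complex I and -0.11 for the surface genes listed with cd276.S, against -0.01 over all probe sets. The 3 remaining lists were HIPK, DYRK and CLK kinases, calpains with calpastatin, and TFIIH with nucleotide excision repair. The measured kinase genes include no DYRK gene. At the brightest probe sets, 0 of 9, 0 of 9 and 0 of 13 genes passed limma's adjusted p in any comparison, with or without the block. The medians of these lists in MO13 were -0.13, -0.31 and -0.22. The brightest hipk3.L probe set differed there by -0.98. The member probe set of hipk3.L, which the rule chose, is not in these counts.

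Among the marker lists, with the block, nr2f1.L of the crest list differed from CMO by -0.99 in MO13 (limma adjusted p = 0.0257, and 0.21 without the block). In MO13+C13 it differed from CMO by -0.72 (limma adjusted p = 0.0552 with the block, and 0.391 without it). tnnt3.S of the muscle list, at a CMO mean of 3.54, was lower in MO13 by a difference of -1.01 and in MO13+C13 by -1.12 (limma adjusted p = 0.0252 and 0.0172 with the block, and 0.159 and 0.0962 without it). cldn6.2.S and grhl3.L of the epidermis list were higher in MO13+C13 by 0.94 and 0.80 (limma adjusted p = 0.0172 and 0.0287 with the block, and 0.464 and 0.633 without it). The crest list as a whole had a median difference from CMO of -0.19 in MO13 and -0.19 in MO13+C13. Over all probe sets these medians were -0.01 and 0.0. Of its 20 genes, 16 had a mean below CMO in MO13 and 15 in MO13+C13, and both counts share the CMO arrays. Whether this shift bears on the members was not tested. The epidermis list as a whole had a median difference of 0.42 between MO13+C13 and MO13, against 0.0 over all probe sets. In that comparison 0 of its 23 genes passed limma's adjusted p, with or without the block. The members' median of -0.05 is confined by the rule.

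All 95 members are on the authors' deposited list for loss of ADAM13, which holds 39.5% of the probe sets and rests on the contrast that chose them. On the authors' deposited list for loss and domain together, which holds 13.5%, there are 31 members, or 32.6%. The lists hold 6121 and 2097 probe sets, in this order. Since every member is on the first list, the share over all probe sets is not a matched reference for the 31. Both lists state a p under 0.01 without naming the test.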

How the data were processed

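Per the submitters' processing notes, Affymetrix Expression Console and GC-RMA gave the deposited values, which are log2 intensities with 1 value per probe set, and the sources used here name no version of either tool. Quantile steps of that kind make arrays alike in distribution, so only relative changes can be read, and low values carry no detection call. The authors' deposited lists hold the same log2 values, and their text states a p-value limit of 0.01 without naming a test. By the array annotation 9304 probe sets have 1 gene symbol, 195 several and 5992 none, and 9227 matched the RefSeq gene table by gene identifier, which updated 2 symbols. No depth applies to arrays, and 3 arrays per group limit the precision: an exact permutation test of 3 against 3 cannot go below 0.1, so all p-values come from limma 3.58.1 in R 4.3.3.

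limma (lmFit and eBayes, two-sided) was fitted to all 9 arrays and 15491 probe sets with group as the only term, with Benjamini-Hochberg adjustment over all of them and a threshold of 0.05. Intervals are 95% intervals from that fit. Nothing states separate cultures beyond independent experiments, so p-values measure the spread between these arrays. Replicate numbers name the shared experiment per the labels. Deviations from the group means correlated at 0.51 to 0.73 within the 9 same-experiment pairs of arrays and at -0.06 or lower in other pairs, so the fit with the experiment as a block is given beside results it changes. Other alternatives were the arrays compared alone, a filter on low values, a variance trend, centring each array on its median, left-out arrays and experiments, and other cut-offs. Centring for called counts, and the block with an experiment left out, were added after the data were seen. The limma step was tested on simulated data.

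The members, gene lists and tests were chosen with earlier results of these data known. Named were all members with 1 informative symbol, members on a list, genes with 2 or more member probe sets, the 5 nearest to the threshold on each side, and the 3 smallest p-values in each direction for MO13+C13 minus MO13. Array values are given for the 15 named with the lowest mean difference and for some further named members.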

Additional observations from a re-analysis of the deposited data

How the results depend on the processing

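The number of members was 145 with differences of -0.4 or lower, 67 with -0.6 or lower, 104 and 66 with a control mean of 4 and of 6 or more, and 84 with each array centred on its median, and 129 to 201 when an experiment was left out of the rule. The count of 95 is thus set by the threshold. Calls in limma over all probe sets depended on the fit. In MO13 minus CMO 15 probe sets passed, with 179 with the replicate block, 0 with only the compared arrays, 5 with a variance trend, 0 to 14 when an array or experiment was left out, and 0 to 7 with the block and an experiment left out. In MO13+C13 minus CMO 22 passed, with 272 with the replicate block, 9 with only the compared arrays, 10 with a variance trend, 0 to 23 in the left-out fits, and 1 to 34 with the block and an experiment left out. In MO13+C13 minus MO13 the count was 1, also with the replicate block, and 0 to 1 in the left-out fits; 0 members passed in any of the 21 fits of this comparison, where the lowest adjusted p of a member was 0.316. The median of MO13+C13 minus MO13 over the members was -0.05, with -0.10 after centring and -0.05 to -0.01 with an experiment left out. The count of other probe sets of member genes that passed in MO13 was 0, with 2 with the replicate block, and stayed 0 with each experiment left out; in MO13+C13 it was 0 in every fit run. Shares past the threshold in an experiment held apart moved by at most a few percentage points with other cut-offs or centring. Signal limits the members with a CMO mean near 5, whose knockdown values approach the lower part of the scale.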
